A study of Mus musculus with 8 samples.

Results

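Simple and low-complexity repeats are short runs of DNA in which a unit of a few bases recurs or a few bases dominate. They were selected here as every row of the deposited table whose repeat class is Simple_repeat or Low_complexity, which gave 1477746 of 4835895 regions. Of these, 1321371 were simple repeats and 156375 were low-complexity stretches. The table came from ATAC-seq, an assay that counts where a transposase could cut the DNA of nuclei, in primary lung fibroblasts grown from mice. The 4 cGAS knockout (KO) libraries and the 4 wild-type (WT) libraries each comprised 2 labelled female and 2 labelled male, with 1 mouse per library. cGAS is the sensor that detects DNA in the cytosol and starts interferon signalling. The kind of KO allele, the strain and the age of the mice were not given in the sources used here, and no treatment was given in the labels. A name such as KO F1 or WT M2 gives the genotype, the labelled sex and the replicate.

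Microsatellites of this kind arise and change length mainly by slippage of the polymerase during replication. Units that hold the pair CpG are often found in promoters within CpG islands, which tend to be free of nucleosomes, whereas runs of A and T are common in closed chromatin and in the tails of retrotransposons. Polymerases used in library preparation copy very AT-rich and very GC-rich fragments unevenly, so repeats sorted by base composition serve as a gauge of GC-related differences between libraries.

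Copies were sorted by the share of G and C in the unit. Units of A and T alone are called AT-only (393978 copies), units with any G or C up to a share of 50% are called intermediate (931385 copies), and units over 50% are called GC-rich (152205 copies). Low-complexity names were read by their letters, so A-rich counted as AT-only, GA-rich as intermediate and G-rich as GC-rich, and the 178 polypurine copies were left unclassed. Names that are rotations or the opposite strand of each other were also merged into units, which gave 4614 units and classes from 17205 names. The units on which the results turn are listed with G and C in capitals, from the row names of the deposited table, because the base composition is what sorts them. They are the units of 2 different bases, the 9 simple repeats among the 12 most counted units and classes, and the telomere unit, which was added after its values were seen. The 2-base names (AA)n and (CC)n are left out of the list.
Rank 1 by counts, (AC)n repeat: aC
Rank 2 by counts, (AG)n repeat: aG
Rank 5 by counts, (CCG)n repeat: CCG
Rank 6 by counts, (AGG)n repeat: aGG
Rank 7 by counts, (AGGG)n repeat: aGGG
Rank 8 by counts, (ACAG)n repeat: aCaG
Rank 9 by counts, (AAGG)n repeat: aaGG
Rank 10 by counts, (CCCCG)n repeat: CCCCG
Rank 11 by counts, (ACAGC)n repeat: aCaGC
Rank 13 by counts, (AACCCT)n repeat: aaCCCt
Rank 16 by counts, (AT)n repeat: at
Rank 67 by counts, (CG)n repeat: CG

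The table held 43.2 to 72.9 M counts per library, of which open chromatin regions (OCRs, the peak rows of the same table) took 64.6 to 76.4% and simple and low-complexity repeats 1.74 to 2.50%. KO M2 had the lowest total, at 43.2 M, and the lowest OCR share, at 64.6%, and WT M1 had the highest OCR share, at 76.4%. The library labelled KO F2 went against its label. Over the 643 repeats of these classes in the first 2 Mb of the Y chromosome, it held 10.4 counts per M table counts (CPM), against 0.438 CPM in KO F1 and 0.387 to 0.915 CPM in the WT libraries labelled female. The labelled males held 8.48 and 26.0 CPM there in KO, and 8.44 and 12.7 CPM in WT. Its X-linked repeats gave 2.64 counts per 100 autosomal counts outside OCRs, against 2.17 to 2.63 in the labelled males and 3.24 to 3.71 in the other libraries labelled female. Results are therefore also given without this library. A changed share of cells with an open site and a changed opening per cell cannot be told apart in such bulk libraries.

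Open chromatin held repeats very unequally by base composition. An OCR overlapped 13.3% of GC-rich copies, 3.24% of intermediate copies and 2.41% of AT-only copies, with at least 1 shared base. Over all simple and low-complexity repeats the share was 4.05%, and over the 3172881 other repeats in the table it was 4.33%. Among GC-rich simple repeats, 44.2% of the 14937 copies whose unit holds CpG lay in an OCR, against 9.03% of the 120199 copies without it. Intermediate units showed no such split, with 3.10% of 710 copies holding CpG and 3.12% of 884786 copies without. Of the 224 units with at least 200 copies, 12 hold CpG, and 7 of these were among the 12 units most often in OCRs. That order ran from (CCG)n with 79.9% of 2154 copies and (CCCG)n with 73.3% of 748 copies to (AGGGC)n with 19.3% of 622 copies. At the other end, 5 units had no copy in an OCR, the most numerous being (AAGAGAGC)n with 691 copies and (ATATAT)n with 553 copies. The Y chromosome held 49725 copies, of which 34 lay in an OCR, and 2.00% of the 75271 X-linked copies did. These are values of 1 peak set called by the authors and carry no comparison of genotypes.

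**Figure D1:**
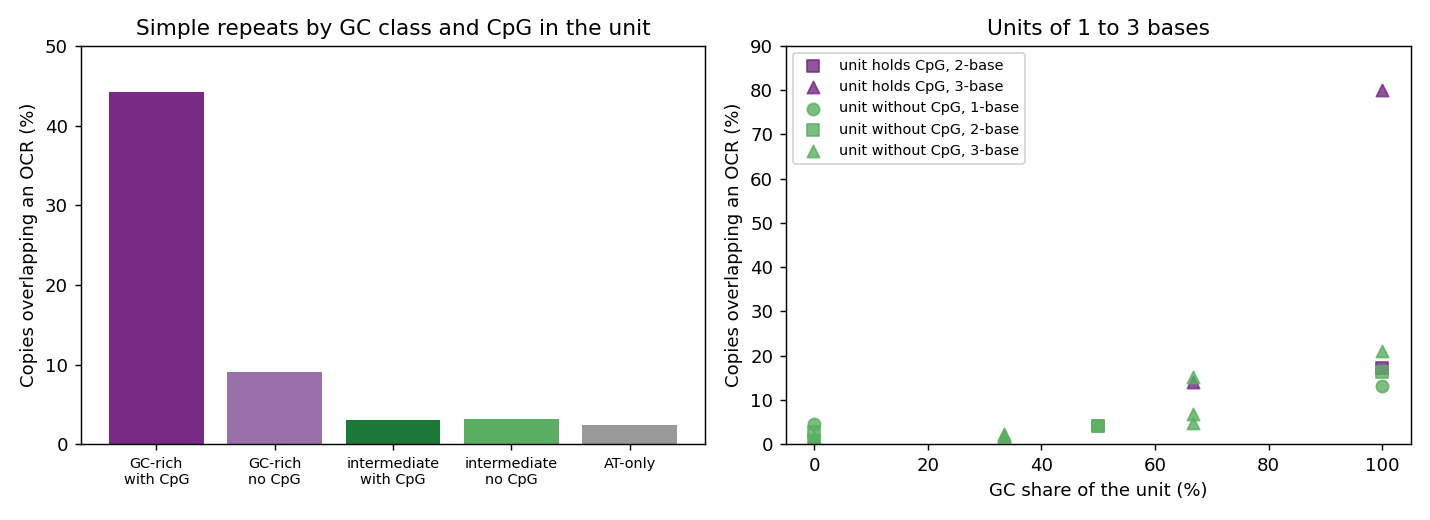
Share of copies overlapping an OCR (%), for simple repeats by GC class and by CpG in the unit (left, bars) and for units of 1 to 3 bases against the GC share of the unit in % (right, 1 point per unit). GC-rich units with CpG stand at 44.2%, all other bars at 9.03% or lower, and the highest point is (CCG)n at 79.9%. GC share is not matched between the bars with and without CpG.

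Many copies had no count at all. No count in any library was found for 65.2% of AT-only copies, 20.9% of intermediate copies and 6.29% of GC-rich copies, and for 31.2% of all copies. The median copy was 41 bases long (6 to 16574 bases). Among runs of a single base, 88.0% of the 116510 (A)n copies had no count, against 21.0% of the 10203 (C)n copies. Counts were scaled as counts per Mb of repeat and per M table counts, which allows levels to be compared per length. Outside OCRs AT-only copies had 39.6 ± 10.04 in KO and 35.0 ± 13.2 in WT (SD over 4 libraries each), intermediate copies 207 ± 51.0 in KO and 187 ± 42.0 in WT, and GC-rich copies 361 ± 52.2 in KO and 337 ± 49.4 in WT. Inside OCRs AT-only copies had 223 ± 13.5 in KO and 219 ± 9.48 in WT, intermediate copies 1428 ± 121 in KO and 1386 ± 94.95 in WT, and GC-rich copies 3853 ± 99.1 in KO and 3842 ± 268 in WT. GC-rich copies with CpG inside OCRs had 5969 ± 189 in KO and 5826 ± 531 in WT, and those without CpG 2754 ± 56.3 in KO and 2809 ± 132 in WT. A read end that lies in a repeat and in an OCR was split between both by the authors' counting, so the values inside OCRs understate the read ends there.

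Units of 2 bases did not follow the GC share strictly per length. Outside OCRs the mean level over the 8 libraries was 347 for (AC)n, 299 for (CG)n, 261 for (AG)n and 66.3 for (AT)n, in counts per Mb and M. The highest library exceeded the lowest 3.49-fold for (AT)n but 1.92-fold for (AC)n, 1.90-fold for (CG)n and 1.78-fold for (AG)n. The rarer (AA)n, with 860 copies, had a mean level of 42.1 and a highest library 1.83-fold over the lowest, and (CC)n, with 86 copies, had 387 and 1.47-fold, so the wide spread of (AT)n was not shared by (AA)n. In OCRs the (CG)n level was 2948 in KO and 2713 in WT, and the (AT)n level 408 in KO and 386 in WT. Among units of 3 bases, (CCG)n was highest outside OCRs, at 1504 in KO and 1412 in WT, followed by (CCC)n, with 71 copies, at 445 in KO and 464 in WT and by (AGC)n at 438 in KO and 437 in WT. (CCG)n and (AGC)n are the units whose expansion in coding or untranslated sequence is known from human repeat disorders. (AAT)n had 34.8 in KO and 30.5 in WT.

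The libraries differed from each other most at AT-only repeats outside OCRs. There the log2 level spanned 1.37 from the lowest to the highest library at a GC share of 0, and the span narrowed with each of 7 bins of GC share, through 1.198, 1.03, 0.863, 0.616 and 0.475 to 0.447 at a share of 1. At a GC share of 0, KO libraries stood at 0.22 (F1), 0.04 (F2), -0.35 (M1) and 0.54 (M2) from the mean of all libraries on the log2 scale, and WT libraries at 0.55 (F1), -0.05 (F2), -0.82 (M1) and -0.13 (M2). The outermost libraries were both WT, and the genotypes overlapped. At a GC share of 1 the KO libraries stood at -0.03, 0.10, -0.13 and 0.27 and the WT libraries at 0.12, 0.00, -0.17 and -0.16. Inside OCRs the span was 0.180 to 0.432 over the same bins, with no steady trend, and was 0.193 at a share of 0 and 0.295 at a share of 1.

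**Figure D2:**
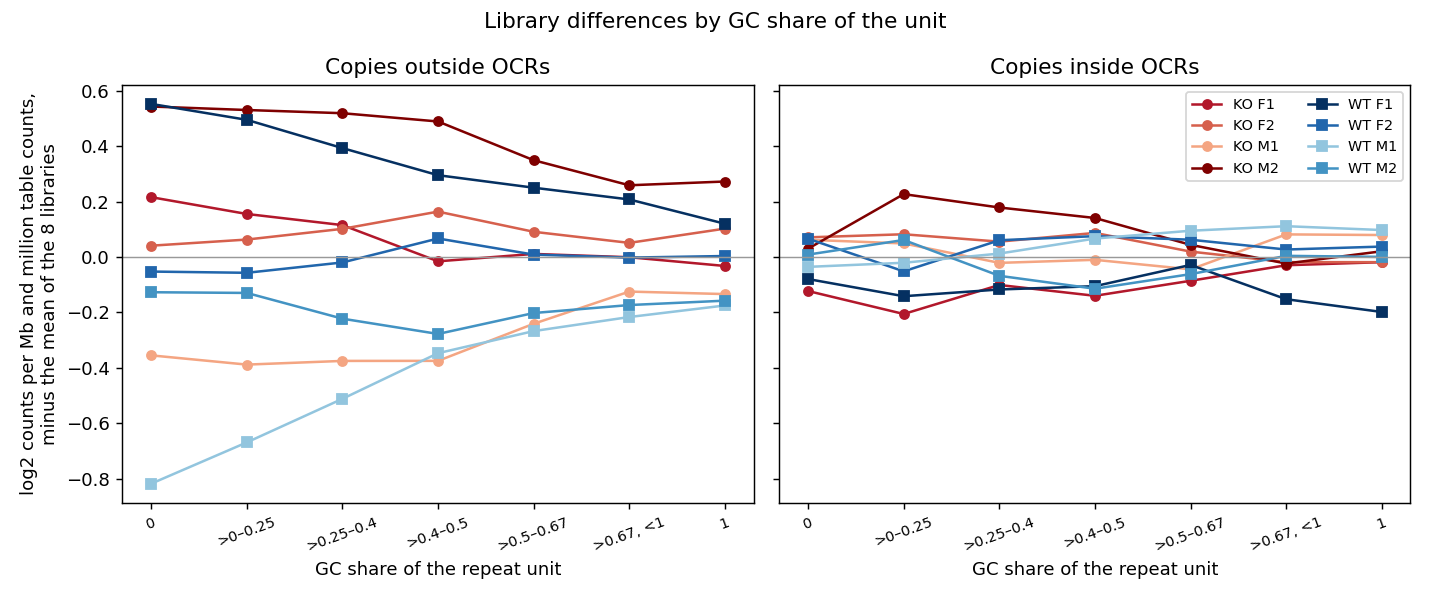
Level of each library, as log2 counts per Mb and M table counts minus the mean of the 8 libraries (vertical axis), by GC share of the repeat unit (horizontal axis), outside OCRs (left) and inside OCRs (right), with KO as red circles and WT as blue squares. Outside OCRs the lines converge, from a span of 1.37 at a GC share of 0 to 0.447 at a share of 1, and WT M1 is lowest at 0.

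The genotypes did not separate on this gauge. The GC index, the log2 ratio of counts per kb in GC-rich copies to AT-only copies, was 3.06, 3.31, 3.44 and 3.04 outside OCRs in KO F1, F2, M1 and M2, against 2.94, 3.33, 3.85 and 3.21 in WT F1, F2, M1 and M2. WT held both the lowest and the highest library. Means were 3.21 ± 0.196 in KO and 3.33 ± 0.383 in WT (SD over 4 libraries each), with a difference of -0.121 on the log2 scale (95% interval -0.812 to 0.501, exact two-sided permutation test over 70 assignments, p = 0.629, smallest possible 0.0286). As a ratio, GC-rich copies had 8.24 to 10.8 times the counts per kb of AT-only copies in KO, and 7.67 to 14.5 times in WT. Without WT M1 the difference was 0.0523, of the opposite sign, and without KO F2 it was -0.154. Inside OCRs the index was 4.205, 4.04, 4.11 and 4.10 in KO F1, F2, M1 and M2, against 4.06, 4.10, 4.26 and 4.10 in WT F1, F2, M1 and M2. The difference there was -0.0137 (95% interval -0.216 to 0.143, exact permutation p = 0.743), and it was 0.0106 without KO F2 and 0.0293 without WT M1.

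**Figure D3:**
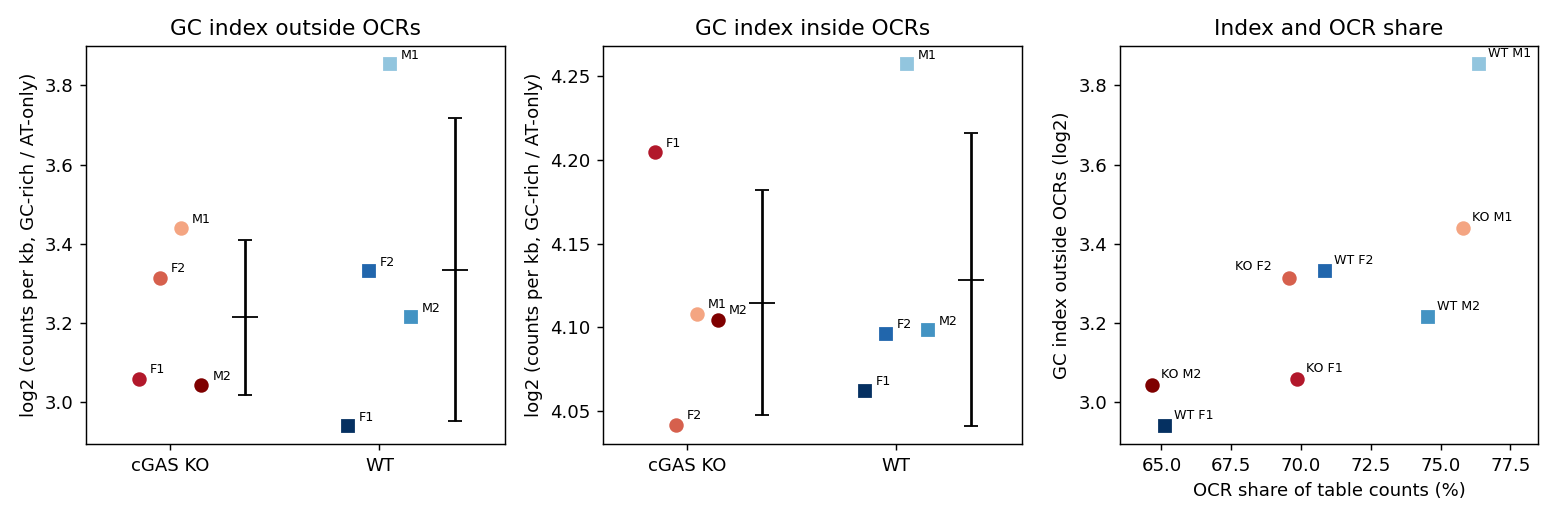
GC index of each library, the log2 ratio of counts per kb in GC-rich over AT-only copies, outside OCRs (left) and inside OCRs (middle), with the mean and SD of 4 libraries beside each genotype, and the index outside OCRs against the OCR share of table counts in % (right). The vertical axes do not start at 0 and differ in range. KO and WT overlap in both indices, and the index is higher in libraries with a larger OCR share.

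Across the 8 libraries, the index outside OCRs was higher where OCRs took a larger share of the table (Pearson r = 0.802, exact permutation p = 0.0108, and Spearman rho = 0.857, exact permutation p = 0.0107). Adjusted over the 8 relations computed, these p-values were 0.0863 and 0.0857 by Benjamini-Hochberg, over the threshold of 0.05. Without WT F1 and WT M1, the 2 libraries farthest from the median, r was 0.698. The same index over copies at least 1000 bases from any OCR gave r = 0.725 with the OCR share (adjusted exact permutation p = 0.137). The index outside OCRs had r = 0.539 with the index inside OCRs (adjusted exact permutation p = 0.274), which became -0.537 without the same 2 libraries. Its relation to the table total had r = 0.554 and rho = 0.738, with adjusted exact permutation p = 0.274 and 0.122. The OCR share and the index come from the same table, and what links them was not tested.

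The shares of table counts overlapped between genotypes in all 6 cells of GC class and OCR overlap. Outside OCRs, AT-only repeats held 0.0685, 0.0607, 0.0461 and 0.0859% of counts in KO F1, F2, M1 and M2, and 0.0865, 0.0569, 0.0335 and 0.0540% in WT F1, F2, M1 and M2. Intermediate repeats outside OCRs held 1.02 ± 0.251% in KO and 0.922 ± 0.206% in WT, and GC-rich repeats 0.295 ± 0.0427% in KO and 0.275 ± 0.0404% in WT (SD over 4 libraries each). Inside OCRs, GC-rich repeats held 0.458 ± 0.0118% in KO and 0.457 ± 0.0318% in WT, intermediate repeats 0.241 ± 0.0205% in KO and 0.234 ± 0.0160% in WT, and AT-only repeats 0.00745 ± 0.000452% in KO and 0.00734 ± 0.000317% in WT. The adjusted exact permutation p was 0.857 to 0.914 over the 6 cells. A single cell at the smallest possible p of 0.0286 could not have passed 0.05 after this adjustment. Several cells would have had to separate fully for any to be called.

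Counts were then summed by repeat name and tested in a fit over all 2066 repeat names of the table with a mean of at least 100 counts, of which 882 were simple or low-complexity names. The other 16323 of the 17205 names had fewer counts and were not tested. No name of either kind passed an adjusted p of 0.05 in edgeR's quasi-likelihood test (0.0% of all names called). At an unadjusted p under 0.05 there were 5 of 882 simple and low-complexity names (0.567%), against 24 of all names (1.16%). DESeq2 and limma voom likewise called none. At an unadjusted p under 0.05 DESeq2 listed 3 of the 882 names (0.340%), against 1.26% of all names. For limma voom it was 26 of the 882 (2.95%), against 3.87% of all names. Without the filter on counts, edgeR called 3 of 17495 names (0.0171%), all of them simple repeats with a mean under 0.339 CPM in each genotype. Of those 17495 names, 16168 were simple or low-complexity. (CATTC)n, 1 of the 3, had 1.06 CPM in KO M2 and 0.0710 to 0.116 CPM in the other KO libraries. KO and WT libraries did not overlap for 7 of the 882 names (0.794%), against 1.16% of all names. The results without KO F2 were the same in number, with 0 names called and 5 of 882 at an unadjusted p under 0.05. That was 0.567%, against 0.968% of all names in the same fit.

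By class, the log2 fold of KO over WT was above 0 for 24 of 24 AT-only names (median 0.17), 266 of 307 intermediate names (median 0.12) and 337 of 551 GC-rich names (median 0.02), and for 71.2% of all repeat names (median 0.06). Several names can stand for the same unit, so these names are not independent. Merged by unit, 16 of 16 AT-only, 115 of 141 intermediate and 155 of 236 GC-rich units and classes were above 0. With the GC index of each library as a covariate, the medians were 0.04, 0.05 and 0.05 for the 3 classes in that order, and 66.9% of all names were above 0. That index is built from the counts of GC-rich and AT-only copies outside OCRs, so the closeness of the GC-rich and AT-only medians is largely fixed by its construction. Intermediate copies do not enter it. Without KO M2 the AT-only and intermediate medians changed sign, to -0.01 and -0.05, with 11 of 24 and 91 of 307 names above 0. Without WT M1 they were 0.03 and 0.05, with 19 of 24 and 214 of 307 names above 0, and without WT F1 they were 0.32 and 0.19. The AT-only median was 0.27 without KO F2 and 0.26 without KO M1, and the intermediate median 0.19 without KO M1. The GC-rich median was 0.02 without KO F2, -0.01 without WT F1, 0.06 without WT F2, 0.05 without WT M1 and 0.01 without WT M2. TMM scaling over repeat names alone kept the AT-only and intermediate medians positive, at 0.12 and 0.07, but turned the GC-rich median to -0.02, with 212 of 551 GC-rich names and 1064 of all 2066 names above 0. Weighted limma voom turned the intermediate median to -0.01, with 146 of 307 intermediate and 1058 of all 2066 names above 0. Scaling by OCRs alone gave 0.23, 0.17 and 0.07, and moved the median of all names to 0.10, with 1734 of 2066 above 0. The count of names above 0 therefore depends on the scaling and on single libraries. The class medians of single libraries had an SD of 0.257 in KO and 0.356 in WT for AT-only names on the log2 scale, and of 0.0403 in KO and 0.0993 in WT for GC-rich names (n = 4 each).

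**Figure D4:**
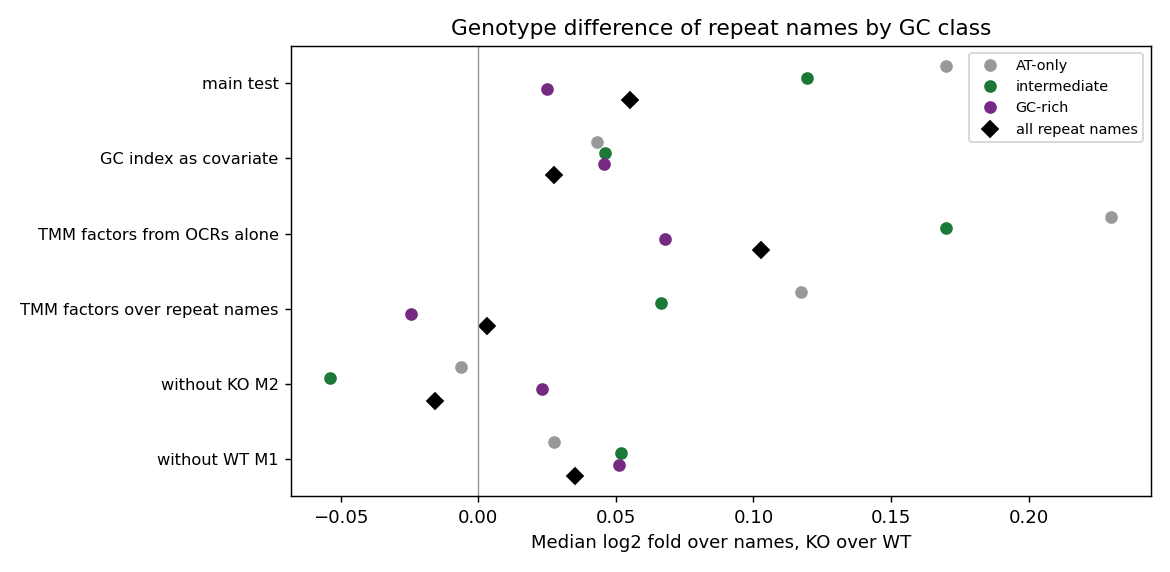
Median log2 fold of KO over WT over tested names (horizontal axis) for AT-only, intermediate and GC-rich names and all repeat names, under 6 settings of the test (rows). The class medians run from 0.02 (GC-rich) to 0.17 (AT-only) in the main test. They run from 0.04 to 0.05 with the GC index, itself made from the GC-rich and AT-only classes, as a covariate. The medians of AT-only and intermediate names are below 0 without KO M2.

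The 12 most counted units and classes together held 59.3% of the counts of these repeats, and their levels overlapped between genotypes. (AC)n, the most common microsatellite of this table by counts, had 5200, 5870, 4301 and 7083 CPM in KO F1, F2, M1 and M2, and 5838, 5488, 4651 and 4602 CPM in WT F1, F2, M1 and M2. KO held both the lowest and the highest library. Its fold was 1.10 (95% interval 0.839 to 1.43, edgeR adjusted p = 0.957). A-rich stretches, which include retrotransposon tails, had 281, 248, 235 and 304 CPM in KO F1, F2, M1 and M2, and 302, 239, 194 and 248 CPM in WT F1, F2, M1 and M2, with a fold of 1.09. The CpG-holding (CCG)n had 488, 484, 550 and 486 CPM in KO F1, F2, M1 and M2, and 398, 508, 558 and 514 CPM in WT F1, F2, M1 and M2, with a fold of 1.02 (95% interval 0.865 to 1.1996). WT F1 was the lowest library for (CCG)n and, after KO M2, the highest for A-rich stretches.

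(AG)n had a mean of 1833 ± 351 CPM in KO and 1731 ± 175 CPM in WT, and GA-rich stretches 1092 ± 86.1 CPM in KO and 1032 ± 49.1 CPM in WT (SD over 4 libraries each). G-rich stretches had 1000.1 ± 32.2 CPM in KO and 985 ± 73.2 CPM in WT. (AGG)n had a fold of 1.06, (AGGG)n of 1.01, (ACAG)n of 1.04, (AAGG)n of 1.10 and (CCCCG)n of 1.02. (ACAGC)n was the only one of the 12 with a fold under 1, at 0.930 (95% interval 0.680 to 1.27), with 211, 285, 187 and 311 CPM in KO F1, F2, M1 and M2 and 261, 298, 297 and 214 CPM in WT F1, F2, M1 and M2. All 525 of its copies had counts, and 26.7% lay in OCRs. The edgeR adjusted p of the 12 units was 0.957 to 0.992 over all merged units and other repeat names, so none passed the test. At this number of libraries the intervals do not exclude folds such as 1.43 for (AC)n.

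**Figure D5:**
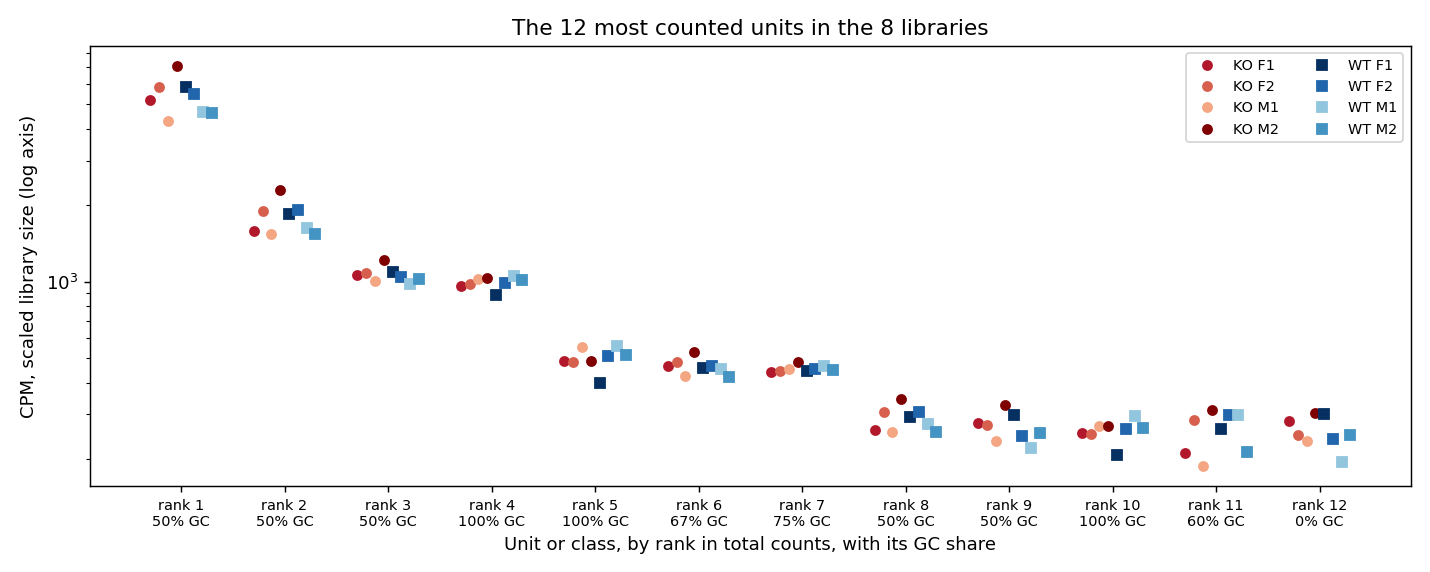
Level of the 12 most counted units and classes (horizontal axis, by rank in total counts with the GC share of the unit) in CPM on a log axis, 1 point per library, with KO as red circles left of WT as blue squares. KO and WT overlap at every rank, and KO M2 is the highest library at ranks 1 to 3, which are (AC)n, (AG)n and GA-rich stretches.

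The telomere unit (AACCCT)n, 13th by counts, had 710 annotated copies, of which 18.03% lay in an OCR. Its level was 204, 270, 186 and 396 CPM in KO F1, F2, M1 and M2, and 226, 261, 231 and 197 CPM in WT F1, F2, M1 and M2. KO M2 was the highest library and KO M1 the lowest, and the fold was 1.15 (95% interval 0.773 to 1.71, edgeR adjusted p = 0.957). (AT)n had 248, 229, 158 and 345 CPM in KO F1, F2, M1 and M2, and 316, 212, 113 and 210 CPM in WT F1, F2, M1 and M2, with a fold of 1.19 (95% interval 0.695 to 2.02). The KO libraries stood in the same order for (AT)n as for A-rich stretches, and in WT both were lowest in M1 and highest in F1. (CG)n had 37.4, 34.4, 35.6 and 39.5 CPM in KO F1, F2, M1 and M2, and 33.2, 34.3, 34.7 and 33.2 CPM in WT F1, F2, M1 and M2, with a fold of 1.09 (95% interval 0.979 to 1.203).

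With no name past the threshold, the 3 simple or low-complexity names with the lowest p in each direction were taken for description. (TCTGTGC)n, with 5 copies and none in an OCR, had 2.08, 2.07, 2.43 and 2.42 CPM in KO F1, F2, M1 and M2, and 1.94, 1.92, 1.79 and 1.71 CPM in WT F1, F2, M1 and M2, with a fold of 1.22. (CTCTTT)n averaged 3.01 ± 0.281 CPM in KO and 2.55 ± 0.0446 CPM in WT, and (CCCTTC)n 2.55 ± 0.424 CPM in KO and 2.02 ± 0.127 CPM in WT (SD over 4 libraries each). For these 3 names the libraries of the genotypes did not overlap. On the low side, (GCCCA)n averaged 17.2 ± 1.17 CPM in KO and 20.3 ± 2.67 CPM in WT, (CAGCT)n 4.50 ± 0.459 CPM in KO and 6.27 ± 1.79 CPM in WT, and (CAGCC)n 14.1 ± 1.84 CPM in KO and 16.7 ± 1.58 CPM in WT, and in each the genotypes overlapped. The edgeR adjusted p was 0.980 for all 6. Outside OCRs alone, the log2 fold of (CAGCC)n was 0.14, against -0.24 over all its copies.

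Single copies were tested together with all rows of the table. A filter on low counts left 573270 rows, of which 15940 were simple or low-complexity repeats, 1.08% of them, with a median of 16.5 counts per library. edgeR called no row of any kind (0.0% of rows). At an unadjusted p under 0.05 there were 200 of these 15940 repeats (1.25%), against 5.36% of all rows. The share was 9.38% of OCR rows and 3.53% of the other repeats, and depth was not matched between these sets. DESeq2 called 2358 of the 284295 rows with an adjusted p (0.829%), and none of the 4762 simple or low-complexity repeats among them. Its calls were 2139 of 174556 OCRs and 219 of 104977 other repeats. At an unadjusted p under 0.05 DESeq2 listed 123 of the 15940 repeats (0.772%), against 4.92% of all rows.

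The copies with the lowest p are described with their counts. A GA-rich stretch outside OCRs at chr3:9070794-9070855 (GRCm39) had 18, 26, 13 and 21 counts in KO F1, F2, M1 and M2, and 4, 8, 7 and 4 counts in WT F1, F2, M1 and M2. A G-rich stretch within an OCR at chr4:119823593-119823660 had 26, 31, 34.5 and 28 counts in KO F1, F2, M1 and M2, and 11, 18, 8.5 and 8 counts in WT F1, F2, M1 and M2. A (TCC)n copy within an OCR at chr7:30113133-30113192 had 15.5, 19, 14 and 20 counts in KO F1, F2, M1 and M2, and 5, 9, 3 and 3.5 counts in WT F1, F2, M1 and M2. KO exceeded WT in every library of these 3 copies, as the rule chose them by p. On the low side stood an (ATAT)n copy at chr7:19037201-19037235 and, just before it, a (CGCA)n copy at chr7:19037156-19037180. The (ATAT)n copy had 5, 12, 6 and 7 counts in KO F1, F2, M1 and M2, and 16, 31, 35 and 22 counts in WT F1, F2, M1 and M2, and both copies can count ends of the same fragments. A (CA)n copy outside OCRs at chr19:20353176-20353265 averaged 0.294 ± 0.0919 CPM in KO and 0.773 ± 0.315 CPM in WT (SD over 4 libraries each). The edgeR adjusted p of the 6 copies was 0.414 to 0.475. The genes around them were not looked up, since no annotation of GRCm39 was used here, and reads placed among like repeats elsewhere make single copies uncertain.

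The OCRs that hold these repeats were also set side by side by genotype. OCRs with only GC-rich copies (11993) took 14.6 ± 0.510% of all counts in OCRs in KO libraries and 14.3 ± 0.540% in WT libraries, those with only intermediate copies (21385) 12.01 ± 0.168% in KO and 12.2 ± 0.0868% in WT, and those with only AT-only copies (6612) 4.19 ± 0.0543% in KO and 4.21 ± 0.0924% in WT (SD over 4 libraries each). The log2 ratio of the GC-rich to the AT-only share was 1.80 ± 0.0410 in KO and 1.76 ± 0.0272 in WT (exact two-sided permutation p = 0.229). The median log2 fold over OCRs was -0.02 with only GC-rich copies, -0.06 with only intermediate copies, -0.05 with only AT-only copies and -0.05 without any, and the share of OCRs at an unadjusted edgeR p under 0.05 was 5.89, 8.95, 9.15 and 9.87% in the same order.

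The design also allows a comparison of the genotype difference between the sexes, with 2 libraries per sex and genotype. The GC index outside OCRs differed by 0.0515 between KO and WT libraries labelled female and by -0.293 between those labelled male. Without KO F2 the female difference was -0.0763, of the opposite sign, and rests on 1 KO library. No name passed the interaction test in edgeR (0.0% of all names called), and at an unadjusted p under 0.05 there were 5 of 882 simple and low-complexity names, against 0.290% of all names. DESeq2 called none either, and without the filter on counts edgeR called 2 of 17495 names (0.0114%), both simple repeats. Of those 17495 names, 16168 were simple or low-complexity. The male minus female difference of log2 folds was above 0 for 24 of 24 AT-only names (median 0.55), 286 of 307 intermediate names (median 0.32) and 222 of 551 GC-rich names (median -0.05), and for 65.6% of all names. In DESeq2 the medians were 0.43, 0.20 and -0.14, with 127 of 551 GC-rich names and 1033 of all 2066 names above 0. Per library, the median deviation of AT-only names from their mean over all libraries was -0.22 (KO M1), 0.38 (KO M2), -0.56 (WT M1) and -0.03 (WT M2) on the log2 scale. It was 0.18 (KO F1), 0.02 (KO F2), 0.30 (WT F1) and -0.03 (WT F2) under the female label. KO M2 was the highest library and WT M1 the lowest, and KO M1 stood below WT M2. The interaction was not refitted on names merged by unit, nor without KO M2 or WT M1. Without KO F2, whose label the Y-linked counts went against, the interaction medians were 0.46, 0.32 and -0.04. That leaves 1 KO library labelled female, which is assumed to vary like the other groups, so the 0 names called there say nothing about stability.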

How the data were processed

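The deposited table holds estimated counts per region for 8 ATAC-seq libraries, made with featureCounts 2.0.3 per the file headers, from both ends of aligned pairs reduced to their 5' ends. Per the file headers, a read end lying in k regions was split evenly among them. Bowtie2, Trim Galore, Picard, SAMtools, bedtools, MACS2 and the build GRCm39 are named in the submitters' processing notes. The treatment of reads with several equal matches, of duplicates and of the transposase offset is not given in the sources used here. The table holds library totals of 43.2 to 72.9 M counts.

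Repeats and lists were chosen with earlier results of these data known. GC shares came from the letters of the repeat names. The estimated counts were rounded for count models. Names with a mean of at least 100 counts, and single rows kept by filterByExpr, were tested with edgeR 4.0.16 in R 4.3.3 (quasi-likelihood, robust, sex label as covariate, table total as library size, TMM factors from OCRs and repeats together), with Benjamini-Hochberg adjustment over all rows tested. Merging names by unit, 5 of the 8 relations and the CpG, OCR and 7-bin groupings were added after seeing the data. Indices and shares were compared by two-sided exact permutation (Python 3.11.15 with numpy 2.4.6), with intervals by inversion at 95%. CPM used TMM-scaled library sizes, except on the Y chromosome, where the table total was used. Named were the 12 units with most counts and, with none past the threshold, the 3 names and 3 copies with the lowest p in each direction. Separate mice are given as the source of the libraries in the series' design. Alternatives were DESeq2 1.42.0, weighted voom (limma 3.58.1), further scaling factors, filters and denominators, no sex covariate, a GC index covariate, autosomes only, copies outside or far from OCRs, a replicate block and leaving out each library. The tests were tested on simulated data. No genome of GRCm39 was used here, so no region's sequence or flanking gene was read, and the Cgas locus was not analysed here.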

Additional observations from a re-analysis of the deposited data

Results flagged for a closer look

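KO M1 stood apart from the other KO libraries in 2 levels. For (CCG)n it had 550 CPM, against 484 to 488 CPM in the other KO libraries, a gap of 0.931 of the range of the 4, and WT spanned 398 to 558 CPM. For (GCCCA)n it had 18.9 CPM, against 16.4 to 16.7 CPM in the other KO libraries, a gap of 0.882 of the range, and WT spanned 18.4 to 24.1 CPM. With 58 quantities and 116 groups of 4 looked at, chance gives about 1 in 20 groups such a gap.

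Outside the comparisons, the library labelled KO F2 held 10.4 CPM over repeats in the first 2 Mb of the Y chromosome, against at most 0.915 CPM in the other libraries labelled female.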

How the results depend on the processing

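Of 139 recomputed main results, 122 were unchanged, 15 changed sign and 2 counts moved. For differences and relations, unchanged means the same sign and the same side of the threshold. For counts of calls, which have no direction, it means that 0 were called again. None gained or lost a call by the permutation test. Indices and shares under the replicate block could not pass the threshold, so their side of it was fixed. A single share on its own could not pass it in any setting. Differences are KO minus WT. The GC index outside OCRs spanned -0.253 to 0.0523 when 1 library was left out, positive without WT M1, and the index inside OCRs -0.0437 to 0.0293. With at least 50% of the copy inside an OCR, the index inside OCRs differed by 0.00648. Leaving out 1 library gave differences in % of table counts of -0.000483 to 0.0172 (AT-only, outside), -7.5e-06 to 0.000330 (AT-only, inside), -0.00855 to 0.193 (intermediate, outside), -6.75e-05 to 0.0157 (intermediate, inside) and -0.0126 to 0.0124 (GC-rich, inside). As shares of repeat counts, AT-only, intermediate and GC-rich repeats inside OCRs differed by -0.00127, -0.0355 and -0.107 percentage points. Without its 2 farthest libraries, the relation between the indices was -0.537. Without a count filter, 3 of 17495 names were called, (CATTC)n and (CACCGAA)n up and (GCTCACGGTG)n down, each with a mean under 0.339 CPM. The interaction test without that filter called 2. Of the 17495 names, 16168 were simple or low-complexity. Outside OCRs (CAGCC)n had a log2 fold of 0.14. The cause was not tested.

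The labels do not say that a replicate number marks a shared litter, batch or day. Deviations of same-numbered libraries correlated at 0.565 (F1), 0.575 (F2), 0.631 (M1) and -0.310 (M2), and 6 of 8 libraries correlated best with their own number, a hint of pairing that M2 does not share, so the numbers were not taken as pairs. With the replicate block the GC index differed by -0.121 (exact sign-flip p = 0.375) outside OCRs and by -0.0137 (exact sign-flip p = 0.75) inside. That test flips the signs of 4 pair differences and cannot give a p under 0.05, so it could call neither. In the edgeR fit with the block no name was called. An unadjusted p under 0.05 was found for 15 of 882 simple and low-complexity names (1.70%), against 2.13% of all names. Single copies rest on few counts, and the 461338 copies without a count cannot be compared.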
